A study of Mus musculus with 24 samples.

Results

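The glucocorticoid receptor and the genes of its chaperone complex were followed in mouse embryonic fibroblasts, connective tissue cells grown from embryos. The 9 genes were chosen by symbol and found by their Ensembl identifiers among the 45706 gene entries of each count table, and all 9 were among the 15221 genes with enough reads to be tested. The series holds 24 libraries of polyadenylated RNA from 8 groups, with 3 libraries per group. Cells of the receptor mutant genotype GR Zn/Zn (the GR mutant below) received dexamethasone with LPS, LPS, dexamethasone, or vehicle, and GR wt/wt cells (wild type) received the same. Dexamethasone (Dex, a synthetic glucocorticoid) was given at 1 uM for 16 h, and LPS, a bacterial cell wall component that sets off innate immune signalling, at 100 ng/ul for 6 h. The vehicle was ethanol. Cells of all groups came from male C57BL/6 embryos of day 13.5, without head and inner organs, and had been in culture for 7 days. Whether the 3 libraries of a group stem from separate embryos or cultures is not in the labels, so every p-value reflects library-to-library spread alone, and that spread may be technical.

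The glucocorticoid receptor (GR, encoded by Nr3c1) is a transcription factor that waits for its hormone in the cytoplasm, held in a shape able to bind hormone by the chaperone HSP90. Loading begins with HSP70 and the adaptor HOP (Stip1), which hands the receptor to HSP90 (Hsp90aa1 and Hsp90ab1), and p23 (Ptges3) then stabilises the mature complex. Immunophilins with tetratricopeptide repeats dock on the same HSP90: FKBP51 (Fkbp5) lowers hormone affinity, FKBP52 (Fkbp4) favours hormone binding and transport to the nucleus, and cyclophilin 40 (Ppid) competes for the same place. Fkbp5 is a textbook target gene of GR and so closes a feedback loop. 11-beta-hydroxysteroid dehydrogenase type 1 (Hsd11b1) regenerates active glucocorticoid from its inactive form inside cells. In the annotation used for the counts (GRCm38), the genes other than Nr3c1 lie at chr17:28399094-28517527 for Fkbp5, chr6:128429735-128438677 for Fkbp4, chr12:110690605-110702728 for Hsp90aa1 and chr17:45567775-45573271 for Hsp90ab1. Stip1 lies at chr19:7020702-7039967, Ptges3 at chr10:128058954-128077272, Ppid at chr3:79591342-79603650 and Hsd11b1 at chr1:193221634-193264075. Ptges3 and Ppid are on the plus strand and the rest on the minus strand.

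The paralogs Fkbp5 and Fkbp4 differed with Dex in wild type, since Fkbp5 was called and Fkbp4, like most of the 9 genes, was not. The stretch around the start of each, from 250 bases before to 50 bases after it (RefSeq, build GRCm38.p6), is shown for that reason, with that of Stip1, the gene with the largest called LPS change. The start that RefSeq gives for Fkbp5 differs from the outermost start in the annotation used for the counts, so its window lies inside the longer gene span given above. The start for Stip1 differs too, and its window lies wholly outside the gene span given above. Capitals mark matches to GAANNTTC, a pair of heat shock units facing each other.
Fkbp5, chr17:28486100-28486399, minus strand: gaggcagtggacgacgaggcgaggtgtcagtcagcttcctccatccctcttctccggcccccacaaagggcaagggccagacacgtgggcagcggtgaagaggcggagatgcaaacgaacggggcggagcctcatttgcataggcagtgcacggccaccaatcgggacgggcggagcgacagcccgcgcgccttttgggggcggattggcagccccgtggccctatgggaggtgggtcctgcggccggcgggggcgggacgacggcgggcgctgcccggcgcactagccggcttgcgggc
Fkbp4, chr6:128438607-128438906, minus strand: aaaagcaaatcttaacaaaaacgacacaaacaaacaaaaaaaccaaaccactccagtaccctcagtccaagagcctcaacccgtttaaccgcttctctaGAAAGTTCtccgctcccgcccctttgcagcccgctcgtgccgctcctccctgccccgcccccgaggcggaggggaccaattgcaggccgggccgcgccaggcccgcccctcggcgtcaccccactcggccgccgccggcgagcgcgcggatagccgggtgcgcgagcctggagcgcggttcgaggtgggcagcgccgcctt
Stip1, chr19:7039977-7040276, minus strand: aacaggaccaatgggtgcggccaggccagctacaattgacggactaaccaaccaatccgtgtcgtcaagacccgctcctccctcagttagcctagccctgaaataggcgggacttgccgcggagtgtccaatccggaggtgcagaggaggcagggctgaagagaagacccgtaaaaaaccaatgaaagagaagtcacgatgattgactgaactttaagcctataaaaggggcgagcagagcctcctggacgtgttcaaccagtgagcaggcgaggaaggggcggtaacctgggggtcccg
The GR half-site, AGAACA or TGTTCT, was searched on both strands in the 5 of 9 genes with a window in the table (these 3, Ptges3 and Hsd11b1). No window held it, against 19.0% of the 32851 promoters of the same length in the table. The full site, AGAACA and TGTTCT 3 bases apart, was in 3 promoters of the table (0.00913%) and in none of these windows. GAANNTTC, which reads the same on both strands, stood in the Fkbp4 window as GAAAGTTC from base -151 relative to the start, and in 7.86% of all promoters. The Fkbp5 window has 70.7% G and C, the Fkbp4 window 65.3% and the Stip1 window 56.3%.

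Depth was 18893069 to 57954068 counted reads per library. A total of 5 libraries stood apart from their groups. They were Dex with LPS replicate 2, LPS replicate 2 and vehicle replicate 1 of the GR mutant, and Dex with LPS replicates 1 and 3 of wild type. Mutant LPS replicate 2, mutant vehicle replicate 1 and wild-type Dex with LPS replicate 3 carry library numbers of a later series. These 3 were also the deepest, at 43902669, 53108986 and 57954068 counted reads, and the next held 25469537. What the later numbers mean is not in the labels, and the part of depth was not tested. The chi-square per degree of freedom between 2 libraries of a group was 8.78 to 62.6 in pairs with at least 1 of the 5. It was 1.56 to 5.06 in the other pairs. In Dex with LPS replicate 2 of the mutant and replicate 1 of wild type, the deviation of a gene from its group mean ran with exon length, at rank correlations of -0.58 in each, and in the rest of the libraries at -0.26 to 0.48. Every call was made with all 24 libraries in 1 fit, and again without these 5. They were picked because they stood apart in these same data, so smaller SEs without them follow in part from the choice. The fit without them keeps only replicate 2 of wild-type Dex with LPS, so comparisons with that group have no replicates on that side. The fibroblast markers summed to 26867 to 36287 CPM per library (counts per 1000000 reads, scaled by the TMM method), led by Fn1, Col1a1 and Col1a2, as the label says. Leukocyte markers summed to 187 to 217 CPM in GR mutant libraries and 71.7 to 96.8 CPM in wild-type libraries, endothelial markers to 7.57 to 36.5 CPM over all libraries, led by Kdr with Cldn5 at 0 to 0.0177 CPM, and epithelial markers to 3.15 to 16.5 CPM. Hepatocyte markers summed to 1.07 to 221 CPM.

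Per kilobase of exon, HSP90 outweighed the receptor many times over. The exon length of a gene was that of all its annotated exons together, whichever transcripts the cells make. In wild-type vehicle cells Hsp90ab1 averaged 876 ± 17.6 CPM per kb, Hsp90aa1 210 ± 5.59, Stip1 130.3 ± 3.71, Ptges3 79.4 ± 0.951, Fkbp4 55.4 ± 1.63, Ppid 18.6 ± 0.661, Nr3c1 11.7 ± 0.383, Fkbp5 4.36 ± 0.148 and Hsd11b1 0.143 ± 0.0568 (SD, n = 3). This order held in 18 of 24 libraries. The other 6 libraries were those of wild-type cells with Dex, with or without LPS, where Fkbp5 passed Nr3c1 and Ppid to sixth place. All 3 libraries of a group had the same order in each of the 8 groups. The ratio of Hsp90ab1 to Nr3c1, each per kb, was 113.8 ± 5.0 in wild-type Dex cells and 75.1 ± 2.30 in wild-type vehicle cells. The highest of the 8 group means was 1.09 times the lowest for Fkbp4, 1.15 for Hsp90ab1, 1.22 for Ptges3, 1.26 for Hsp90aa1, 1.42 for Ppid, 1.45 for Stip1, 1.71 for Nr3c1, 3.19 for Hsd11b1 and 8.15 for Fkbp5. By group means Fkbp5 thus varied most and Fkbp4, its paralog, least. Over single libraries Fkbp4 ran from 133 to 181 CPM and Hsp90ab1 from 2576 to 3094 CPM, a narrower range for its level.

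**Figure D1:**
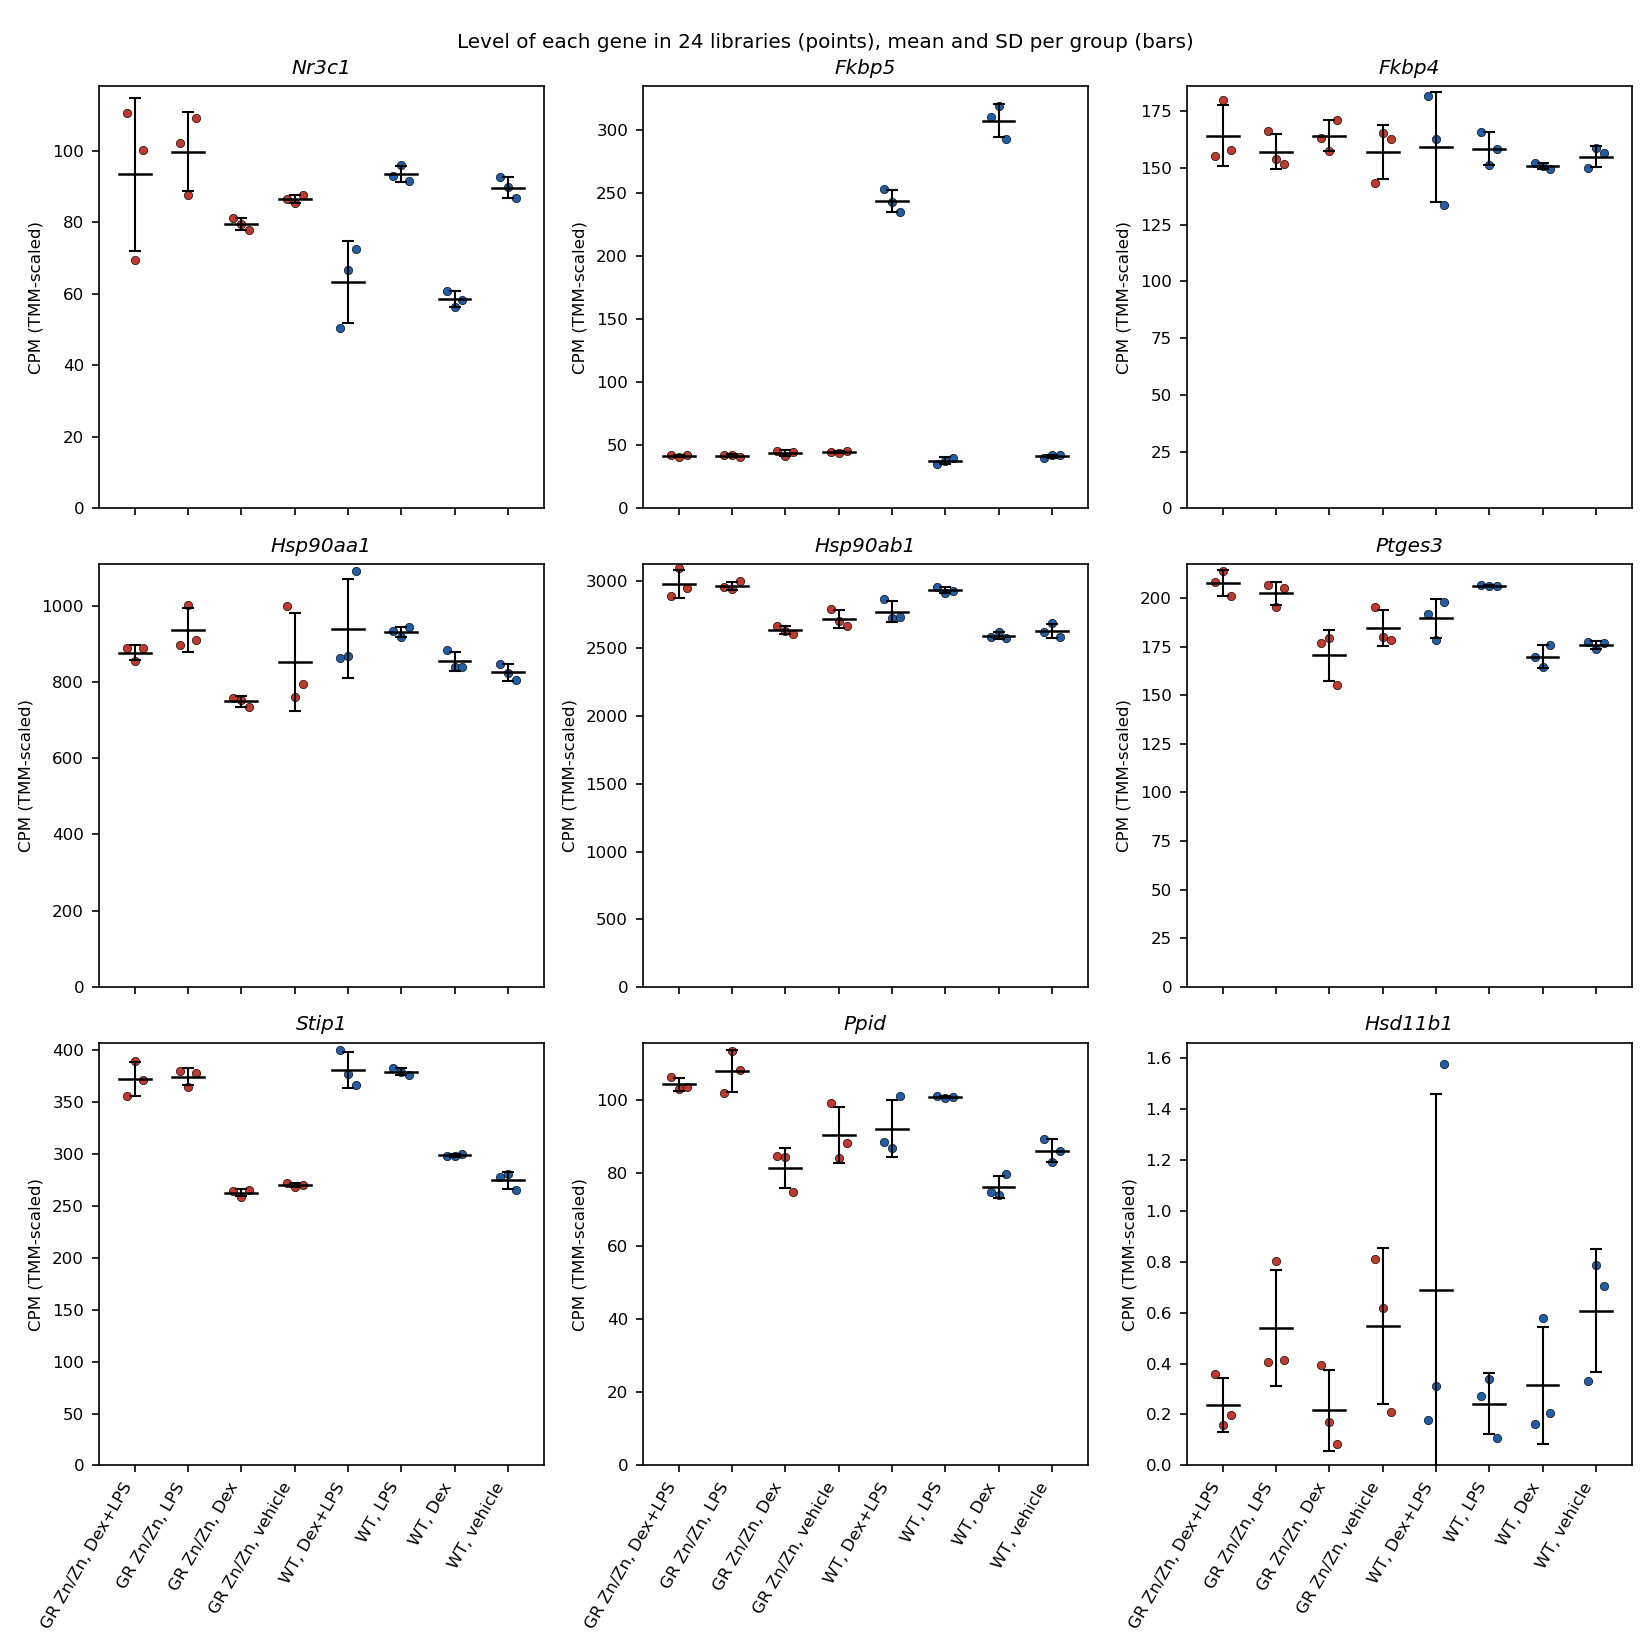
Level of each of the 9 genes in CPM (vertical axis, from 0) in the 8 groups of GR mutant (red) and wild-type (blue) fibroblasts; points are libraries and bars the mean and SD of 3. Fkbp5 stands at 235 to 319 CPM in the wild-type groups with Dex and at 34.9 to 45.8 CPM in all others, and Nr3c1 is lowest in those same wild-type groups.

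Nr3c1, the receptor gene, fell in wild-type cells with Dex. It had 60.8, 56.5 and 58.2 CPM in wild-type Dex libraries, against 92.6, 89.9 and 86.8 CPM in wild-type vehicle libraries. The groups did not overlap. The log2 fold change was -0.62 ± 0.13 (SE; edgeR's quasi-likelihood test, adjusted p = 0.00142), or 1.53-fold lower. Under LPS the receptor gene had 50.5, 66.8 and 72.7 CPM in wild-type Dex with LPS libraries, against 92.9, 96.1 and 91.5 CPM in wild-type LPS libraries. Again every library with Dex lay below every library without, and the log2 fold change was -0.56 ± 0.13 (adjusted p = 0.00237). The authors' deposited table gives -0.63 (adjusted p = 2.25e-05) without LPS and -0.56 (adjusted p = 0.000121) with it. These 2 comparisons called 7.92% of tested genes higher and 5.24% lower without LPS, and 10.5% higher and 10.6% lower under LPS. In each, 2 of the 9 genes were called, Fkbp5 higher and Nr3c1 lower, and the other 7 were not. Markers of other cells also moved with Dex in wild type: 4 of 10 leukocyte markers were lower and none higher, with sums of 71.7 to 80.9 CPM in Dex libraries and 94.1 to 96.8 CPM in vehicle libraries. Of 12 fibroblast markers 1 was higher and 3 were lower, of 5 tested endothelial markers 1 was higher, and of 3 tested epithelial markers 2 were lower. Under LPS no leukocyte marker was called with Dex, 1 fibroblast marker was higher and 4 were lower, and 1 endothelial and 2 epithelial markers were lower. Their part in the changes of the 9 genes and of the lists below was not tested.

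In the GR mutant the receptor gene had 81.1, 79.5 and 77.8 CPM in Dex libraries, against 86.5, 85.3 and 87.6 CPM in vehicle libraries. The groups did not overlap, at a log2 fold change of -0.12 ± 0.12 (adjusted p = 0.799). Under LPS it had 110.7, 69.6 and 100.4 CPM in mutant Dex with LPS libraries, against 102, 87.7 and 109 CPM in mutant LPS libraries, and the groups overlapped (log2 fold change -0.09 ± 0.12, adjusted p = 0.961). The 69.6 CPM of the mutant and the 50.5 CPM of wild type, the lowest of their groups, belong to the libraries at -0.58, and Nr3c1 has 7.684 kb of exon. In the other libraries of these groups that correlation was positive, at 0.48 and 0.46 in mutant replicates 1 and 3 and 0.31 and 0.43 in wild-type replicates 2 and 3. The part of length in the Nr3c1 values was not tested.

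The test of the genotype difference in the Dex effect on Nr3c1 did not pass with all libraries. The difference was 0.50 ± 0.18 on the log2 scale without LPS (95% interval 0.13 to 0.86, adjusted p = 0.113) and 0.47 ± 0.18 under LPS (0.10 to 0.83, adjusted p = 0.105). Without the 5 libraries that stood apart the difference without LPS was 0.50 ± 0.06 (adjusted p = 6.54e-09). Under LPS it was 0.51, with only replicate 2 of wild-type Dex with LPS left. The 5 were picked on these same data, so a smaller SE without them follows in part from the choice. With the 4 compared groups alone the difference without LPS was 0.49 ± 0.06 (adjusted p = 1.02e-05). Without mutant Dex with LPS replicate 2 the difference under LPS was 0.64 (adjusted p = 0.00221), and without wild-type Dex with LPS replicate 3 it was 0.59 (adjusted p = 0.0366). Those were the only calls among the 12 fits that left out 1 library under LPS, which gave 0.33 to 0.64 (adjusted p up to 0.275). With the compared groups alone the difference under LPS was 0.47 ± 0.23 (adjusted p = 0.331).

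Fkbp5, the immunophilin that lowers hormone affinity, had the largest called change of the 9 genes in wild type and no call in the GR mutant. It had 310, 319 and 293 CPM in wild-type Dex libraries, against 39.7, 42.0 and 42.2 CPM in wild-type vehicle libraries. The log2 fold change was 2.89 ± 0.06 (adjusted p = 8.43e-20), or 7.44-fold higher. Under LPS it had 253, 243 and 235 CPM in wild-type Dex with LPS libraries, against 34.9, 37.9 and 40.3 CPM in wild-type LPS libraries, with a log2 fold change of 2.69 ± 0.06 (adjusted p = 3.89e-19). In the GR mutant Fkbp5 had 45.8, 41.3 and 44.9 CPM in Dex libraries, against 44.6, 44.2 and 45.7 CPM in vehicle libraries, and the groups overlapped. That log2 fold change was -0.03 ± 0.05 with a 95% interval of -0.14 to 0.09, and under LPS the interval was -0.12 to 0.11. The genotype difference of the Dex effect was -2.92 ± 0.08 without LPS (adjusted p = 6.01e-17) and -2.69 ± 0.08 under LPS (adjusted p = 4.10e-16). Fkbp5 was the only one of the 9 genes called in these tests with all 24 libraries, where 2.60% of tested genes were called higher and 4.40% lower without LPS, and 5.36% higher and 5.03% lower under LPS.

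The Dex effect on Fkbp5 in wild type was 0.20 ± 0.08 lower on the log2 scale under LPS than without LPS (-0.20, adjusted p = 0.28), a test that called 1.56% of genes and none of the 9. With LPS alone Fkbp5 had a log2 fold change of -0.10 ± 0.05 in the GR mutant (adjusted p = 0.166) and -0.13 ± 0.06 in wild type (adjusted p = 0.0846). In wild type it was called without the 5 libraries (-0.14 ± 0.05, adjusted p = 0.0250).

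**Figure D2:**
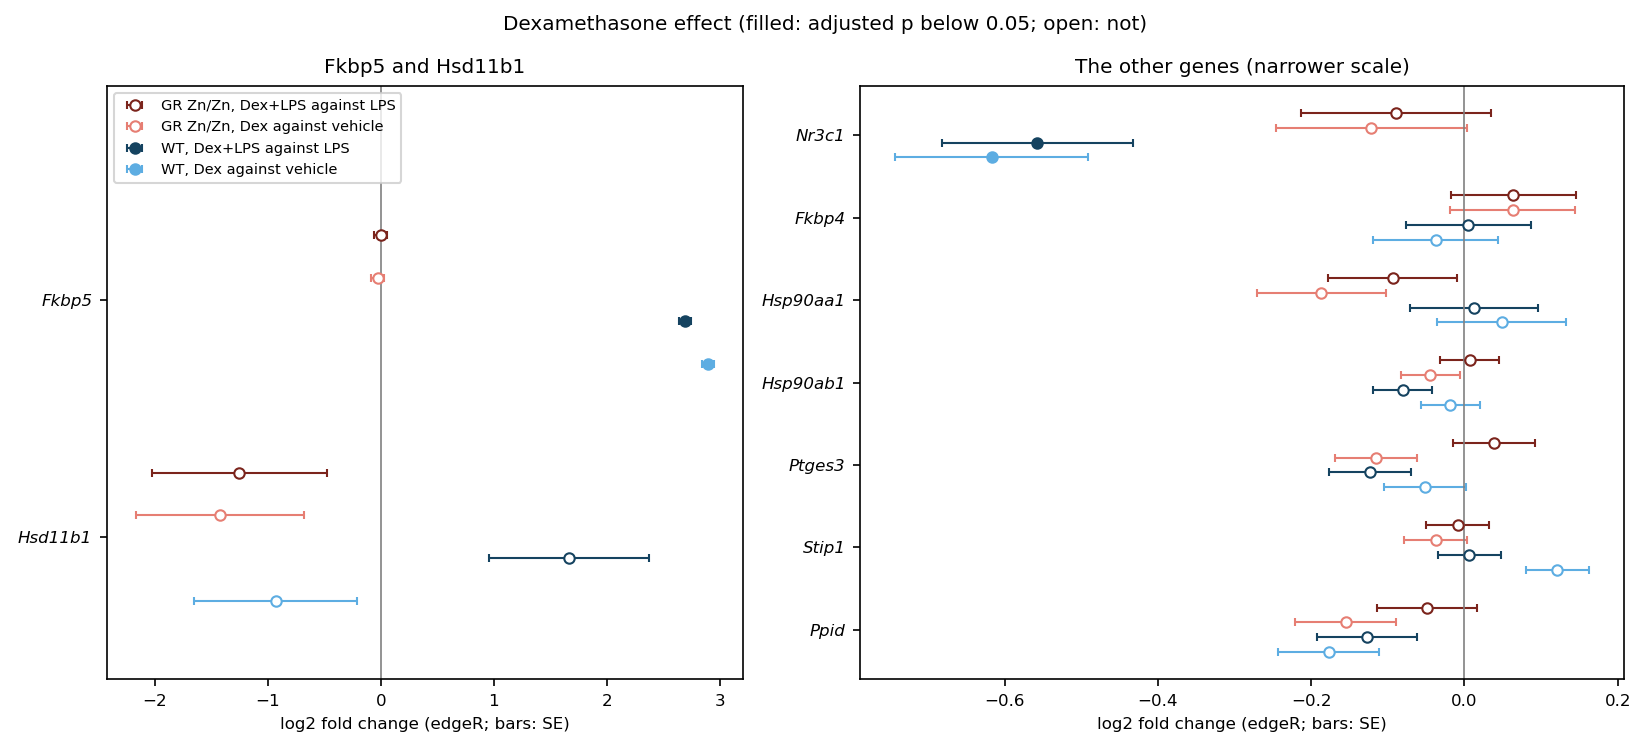
Log2 fold change of each gene with Dex (horizontal axis; bars are SE) in the GR mutant (reds) and in wild type (blues), with LPS (darker) and without (lighter); filled points have adjusted p below 0.05. Fkbp5, at 2.69 and 2.89, and Nr3c1, at -0.56 and -0.62, are filled in wild type, and no point is filled in the mutant.

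Fkbp4, the immunophilin that favours transport, showed no call in any of the 11 comparisons. It had 152, 151 and 150 CPM in wild-type Dex libraries, against 150, 158 and 156 CPM in wild-type vehicle libraries, and the ranges overlapped. The log2 fold change was -0.04 ± 0.08 in wild type, with a 95% interval of -0.21 to 0.13 (adjusted p = 0.871). The balance between the paralogs moved with Fkbp5: the ratio of Fkbp5 to Fkbp4, each in CPM per kb, was 0.601 ± 0.0233 in wild-type Dex cells and 0.0788 ± 0.000851 in wild-type vehicle cells. It was 0.457 ± 0.0560 in wild-type Dex with LPS cells and 0.0704 ± 0.00719 in wild-type LPS cells. In the 4 GR mutant groups the mean ratio was 0.0757 to 0.0846. Fkbp4 RNA stayed above Fkbp5 RNA per kb in every group, with 2.795 kb of exon for Fkbp4 and 9.468 kb for Fkbp5. In CPM, without regard to length, the order was the reverse in wild-type cells with Dex. Fkbp5 averaged 307 CPM and Fkbp4 151 CPM with Dex, and 244 and 159 CPM with Dex and LPS. In the other groups Fkbp4 was higher in CPM too.

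**Figure D3:**
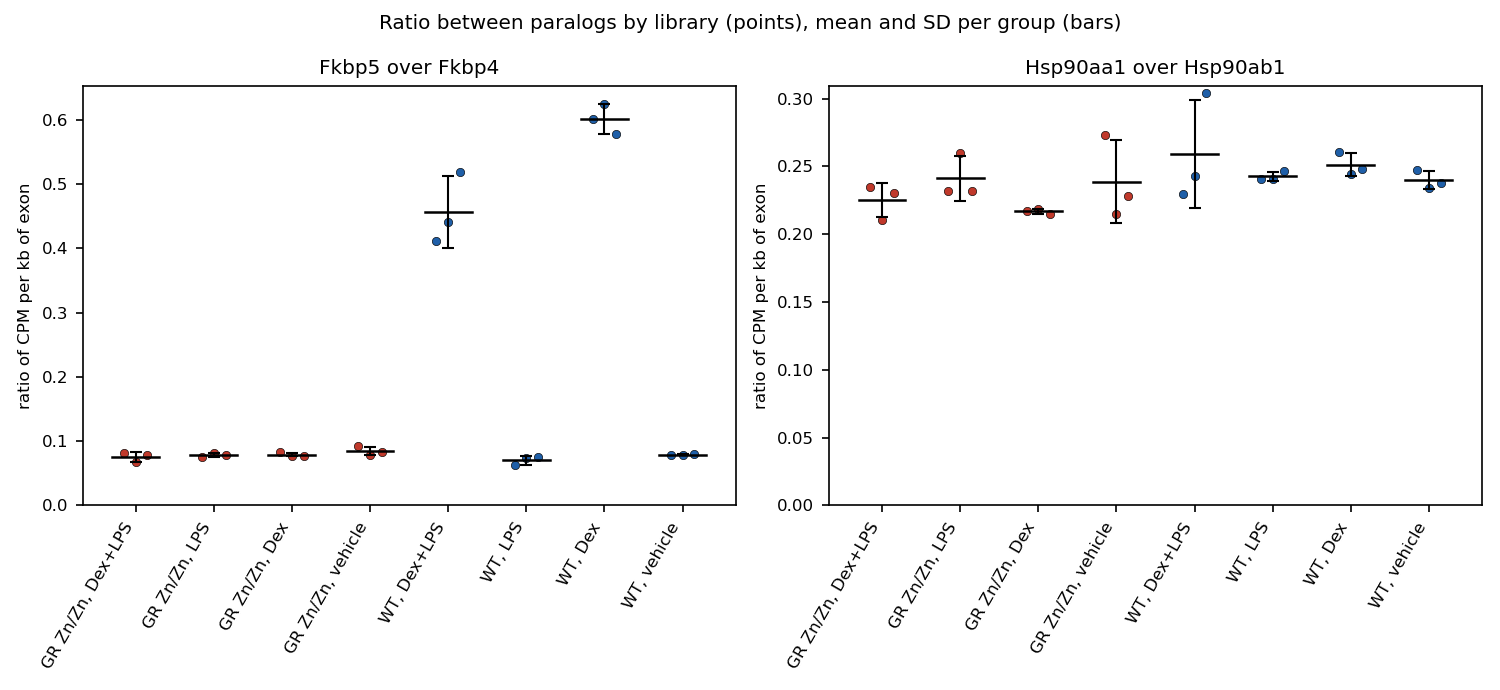
Ratio of Fkbp5 to Fkbp4 (left) and of Hsp90aa1 to Hsp90ab1 (right), each in CPM per kb of exon, by library (points) with mean and SD of 3 (bars); GR mutant red, wild type blue. The left ratio is 0.411 to 0.625 in wild-type libraries with Dex and 0.0622 to 0.0917 in the rest, and the right one is 0.211 to 0.304 throughout.

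The rest of the complex moved little with Dex. In wild type the log2 fold changes were 0.05 ± 0.08 for Hsp90aa1, the inducible HSP90, -0.02 ± 0.04 for Hsp90ab1, the constitutive one, and -0.05 ± 0.05 for Ptges3. Ppid had 74.9, 74.2 and 79.7 CPM in wild-type Dex libraries, against 89.3, 83.2 and 86.2 CPM in wild-type vehicle libraries. All 3 Dex libraries lay below all 3 vehicle libraries, yet the change of -0.18 ± 0.07 missed the threshold (adjusted p = 0.0886). Stip1, the HOP adaptor, had 298, 298 and 300.01 CPM in wild-type Dex libraries, against 278, 280.4 and 266 CPM in wild-type vehicle libraries. Those groups did not overlap either (0.12 ± 0.04, adjusted p = 0.0572). The authors' deposited table has an adjusted p of 0.0186 for Stip1, and DESeq2 on all 24 libraries gave 0.0131. Without the 5 libraries Stip1 was called (0.12 ± 0.03, adjusted p = 0.000466), as was Ppid (-0.18 ± 0.04, adjusted p = 0.000397), which made 4 of 9 genes called in place of 2, where 27.5% of all tested genes were called in place of 13.2%.

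In the GR mutant none of the 9 genes was called with Dex, with or without LPS, in comparisons that called 0% of tested genes without LPS and 0.00657% under LPS. DESeq2 called none of the 9 in either. Over all genes without LPS edgeR called 0, with 1109 at an unadjusted p below 0.05, and DESeq2 called 3. The median log2 fold change of the 9 genes was -0.11 in the mutant without LPS, against -0.0057 over all genes tested. At an unadjusted p below 0.05 there were 0 of 9 genes under LPS and 3 of 9 without LPS, where 7.29% of all genes were. Among them was Hsp90aa1, with 759, 754 and 733 CPM in mutant Dex libraries, against 999.8, 761 and 795 CPM in mutant vehicle libraries (-0.19 ± 0.08, adjusted p = 0.675). The highest of these vehicle values came from replicate 1, a library that stood apart, and without it the change was -0.049. The others were Ptges3 (-0.11 ± 0.05) and Ppid (-0.16 ± 0.07), each also highest in vehicle replicate 1. Ptges3 had 195 CPM there, against 180 and 178 CPM in vehicle replicates 2 and 3, and Ppid 99.2 CPM, against 84.2 and 88.2 CPM. In the fit without that library, 1.84% of all genes had an unadjusted p below 0.05.

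Under LPS in wild type, Dex moved the HSP90 genes and p23 by at most 0.12 on the log2 scale: Hsp90aa1 0.01 ± 0.08, Hsp90ab1 -0.08 ± 0.04 and Ptges3 -0.12 ± 0.05. The authors' deposited table calls Hsp90ab1 (-0.09, adjusted p = 0.0210). Without the 5 libraries only replicate 2 of wild-type Dex with LPS is left, so effect sizes alone are given for that fit. They were -0.23 for Ptges3, -0.23 for Ppid and -0.12 for Hsp90ab1. Hsp90aa1 changed sign there, to -0.12. Wild-type Dex with LPS replicate 3, at 1090 CPM against 863 and 867 CPM in the other two, was the high one of its group, and without it alone the change was -0.11, not called.

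LPS raised Stip1, Ppid and Hsp90ab1 in both genotypes, and Ptges3 in wild type. Stip1 had 380.5, 365 and 379 CPM in GR mutant LPS libraries, against 272, 268 and 269.9 CPM in mutant vehicle libraries. In wild type it had 383, 379 and 376 CPM in LPS libraries, against 278, 280.4 and 266 CPM in vehicle libraries. No library overlapped in either genotype, and the log2 fold changes were 0.47 ± 0.04 in the mutant (adjusted p = 3.68e-09) and 0.47 ± 0.04 in wild type (adjusted p = 7.39e-09), a 1.39- and a 1.38-fold rise. Ppid rose by 0.25 ± 0.07 in the mutant (adjusted p = 0.00402) and by 0.23 ± 0.07 in wild type (adjusted p = 0.0127). Hsp90ab1 rose by 0.12 ± 0.04 in the mutant (adjusted p = 0.0136) and by 0.16 ± 0.04 in wild type (adjusted p = 0.00321). Hsp90aa1 was not called, at 0.14 ± 0.08 in the mutant (adjusted p = 0.224) and 0.17 ± 0.08 in wild type (adjusted p = 0.138). It had 933, 918 and 945 CPM in wild-type LPS libraries, against 848, 824 and 804 CPM in vehicle libraries. In the mutant the groups overlapped. Without the 3 libraries of the later series Hsp90aa1 was called in the mutant (0.22 ± 0.04, adjusted p = 0.000718) and in wild type (0.17 ± 0.04, adjusted p = 0.000768).

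Ptges3 had 207, 195 and 205 CPM in mutant LPS libraries, against 195, 180 and 178 CPM in mutant vehicle libraries, and these touched (0.13 ± 0.05, adjusted p = 0.0605). In wild-type LPS libraries it had 207, 206 and 206 CPM, against 177, 174 and 177 CPM in wild-type vehicle libraries, which lay well apart (0.23 ± 0.05, adjusted p = 0.00233). That the first missed the threshold does not show a genotype difference: the difference of the LPS effect was -0.10 ± 0.08 (95% interval -0.26 to 0.06, adjusted p = 0.778). In all, 3 of 9 genes were called higher in the mutant and 4 of 9 in wild type, none lower, where 19.0% of tested genes were higher and 17.7% lower in the mutant, and 14.0% higher and 12.4% lower in wild type. With LPS 3 of 10 leukocyte markers were higher and 5 lower in the mutant, and 3 higher and 4 lower in wild type; their part was not tested. The median of the 9 was 0.13 in the mutant and 0.16 in wild type, against 0.00084 and -0.0081 over all genes tested. The genotype difference of the LPS effect, which called 0.539% of genes, called none of the 9 and had none at an unadjusted p below 0.05, by edgeR, and none was called by DESeq2.

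Some of the smaller LPS calls were lost under other settings. Hsp90ab1 in the mutant was not called with the compared groups only (0.12, adjusted p = 0.0789) or with no filter on low counts (0.11, adjusted p = 0.160). Hsp90ab1 in the mutant was no longer called when any 1 of 5 of the 6 libraries was left out (adjusted p = 0.0539 to 0.129), the exception being vehicle replicate 1 (adjusted p = 0.0139). Ppid in the mutant was not called without vehicle replicate 2 (adjusted p = 0.0565) or without LPS replicate 2 (adjusted p = 0.0536), and in wild type not without vehicle replicate 2 (adjusted p = 0.0606). Stip1 kept its call in every left-out fit, at 0.44 to 0.48. Nr3c1 had a log2 fold change of 0.20 ± 0.12 with LPS in the mutant (adjusted p = 0.216), which was 0.28 ± 0.05 without the 5 libraries (adjusted p = 2.98e-06), and 0.06 ± 0.12 in wild type (adjusted p = 0.796).

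**Figure D4:**
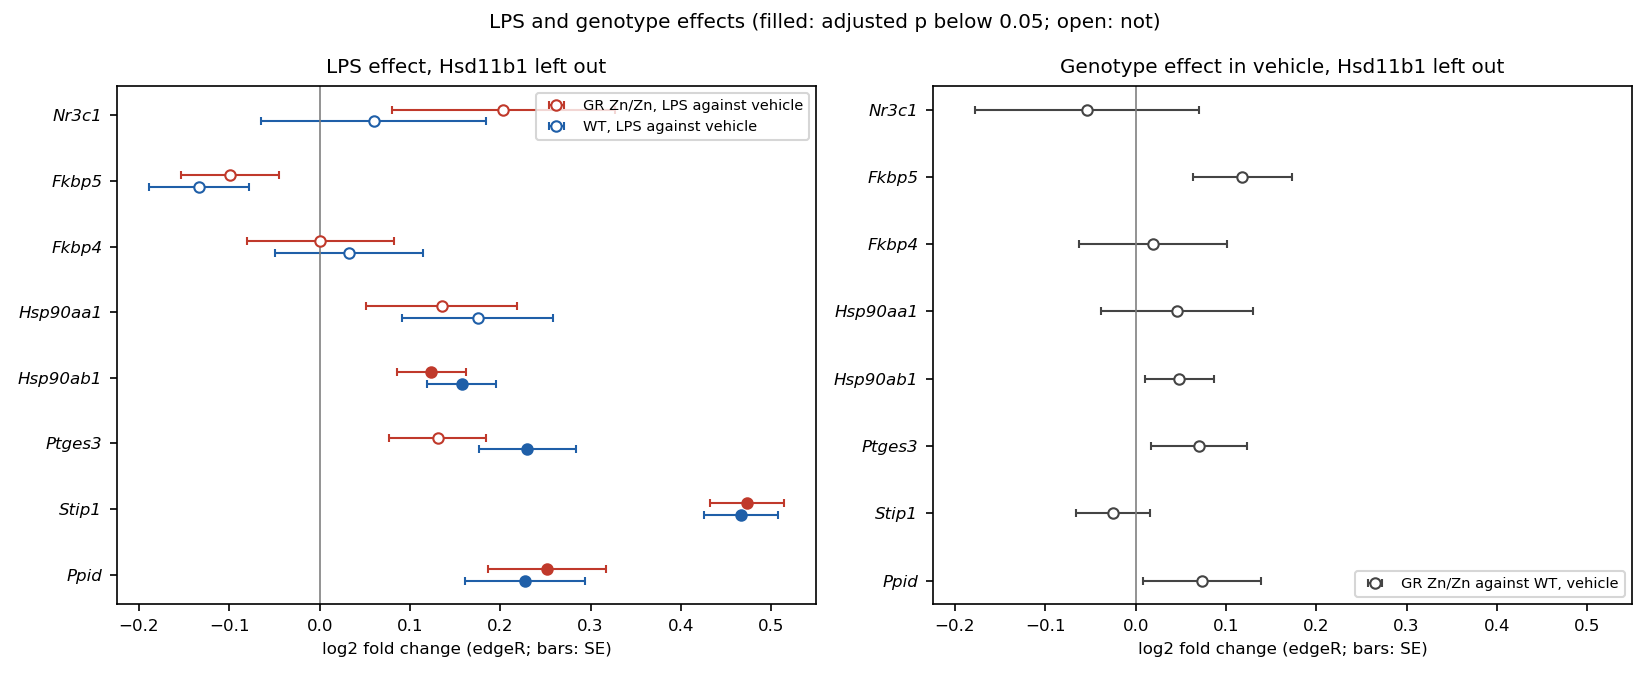
Log2 fold change (horizontal axis; bars are SE) of 8 of the 9 genes with LPS (left; GR mutant red, wild type blue) and between GR mutant and wild type in vehicle (right); filled points have adjusted p below 0.05. Stip1 stands at 0.47 in both genotypes, and no gene is filled on the right.

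Hsp90aa1, Ptges3 and Ppid need care, because reads that map to several places were not counted. Of all 50-base words in the exons of Hsp90aa1, 47.5% also occur in other genes, mostly the pseudogenes Gm12346 and Gm5844. The share was 19.6% for Ptges3, with Ptges3-ps in the lead, 11.01% for Ppid, 5.59% for Stip1, whose exons share words with Cfap20, 3.44% for Hsp90ab1 and under that for the others. The values of these 3 genes are uncertain for that reason.

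None of the 9 genes was called between GR mutant and wild-type vehicle cells, by edgeR or by DESeq2, where 8.69% of tested genes were higher and 10.1% lower in the mutant, and 1 of the 9 had an unadjusted p below 0.05, as had 28.9% of all genes. That was Fkbp5, with 44.6, 44.2 and 45.7 CPM in the mutant, against 39.7, 42.0 and 42.2 CPM in wild type. The mutant libraries lay above the wild-type ones by a log2 difference of 0.12 ± 0.05 (adjusted p = 0.154). Nr3c1 had 86.5, 85.3 and 87.6 CPM in the mutant, against 92.6, 89.9 and 86.8 CPM in wild type (-0.05 ± 0.12, 95% interval -0.31 to 0.20, adjusted p = 0.847). A change of base or residue in the receptor is not visible in a count per gene, so these values do not check the genotype labels. Embryo and genotype go together here and cannot be told apart. Markers of other cells moved with genotype: 9 of 10 leukocyte markers were higher in mutant vehicle cells and none lower, 7 of 12 fibroblast markers were higher and 1 lower, 2 of 5 tested endothelial and 2 of 3 tested epithelial markers were lower. Their part was not tested. Without the 5 libraries Hsp90aa1 was called lower in the mutant (-0.08 ± 0.03, adjusted p = 0.0223).

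Hsd11b1, the enzyme that regenerates active glucocorticoid, was near the floor of detection. It had 2 to 89 reads per library and 0.0858 to 1.58 CPM, where 3 reads correspond to 0.0518 to 0.159 CPM, and the authors' deposited tables do not list it. It had 0.161, 0.578 and 0.205 CPM in wild-type Dex libraries, against 0.332, 0.786 and 0.703 CPM in wild-type vehicle libraries, with overlap (log2 fold change -0.93 ± 0.72, adjusted p = 0.516). Under LPS it had 0.178, 0.313 and 1.58 CPM in wild-type Dex with LPS libraries, against 0.274, 0.341 and 0.109 CPM in wild-type LPS libraries. The last of the Dex values stood far above the rest, and the log2 fold change was 1.67 ± 0.71 (adjusted p = 0.103). It was -0.022 without that library, replicate 3, and 2.05 ± 0.65 without replicate 1 (adjusted p = 0.0306). The genotype difference of this effect was -2.92 ± 1.05 (adjusted p = 0.0881), and -3.30 ± 0.95 without wild-type replicate 1 (adjusted p = 0.0247). With LPS in wild type the change was -1.28 ± 0.76 (adjusted p = 0.245), and -1.28 ± 0.50 without the 5 libraries (adjusted p = 0.0362). The same library had the highest hepatocyte marker sum, 221 CPM. Over the 24 libraries, Pearson's r between Hsd11b1 and that sum was 0.79 on a log2(CPM + 0.1) scale and Spearman's rho was 0.78, as a description of libraries that share depth: the 3 deepest libraries were 3 of the 4 highest in the sum. Alb led the marker list at 0 to 152 CPM, and 10 of the 12 markers were at 0 in at least 1 library. The part of hepatocyte RNA in the Hsd11b1 values was not tested. In bulk RNA, fewer cells of a type and less RNA per cell cannot be told apart. Hsd11b1 overlaps Lamb3 on the opposite strand, and also Gm38118 on its own strand. Fkbp5 likewise overlaps AC154912.5 and AC154912.3 on its own strand. Reads ambiguous between genes, 1.18 to 1.41% per library, were not counted for any gene.

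**Figure D5:**
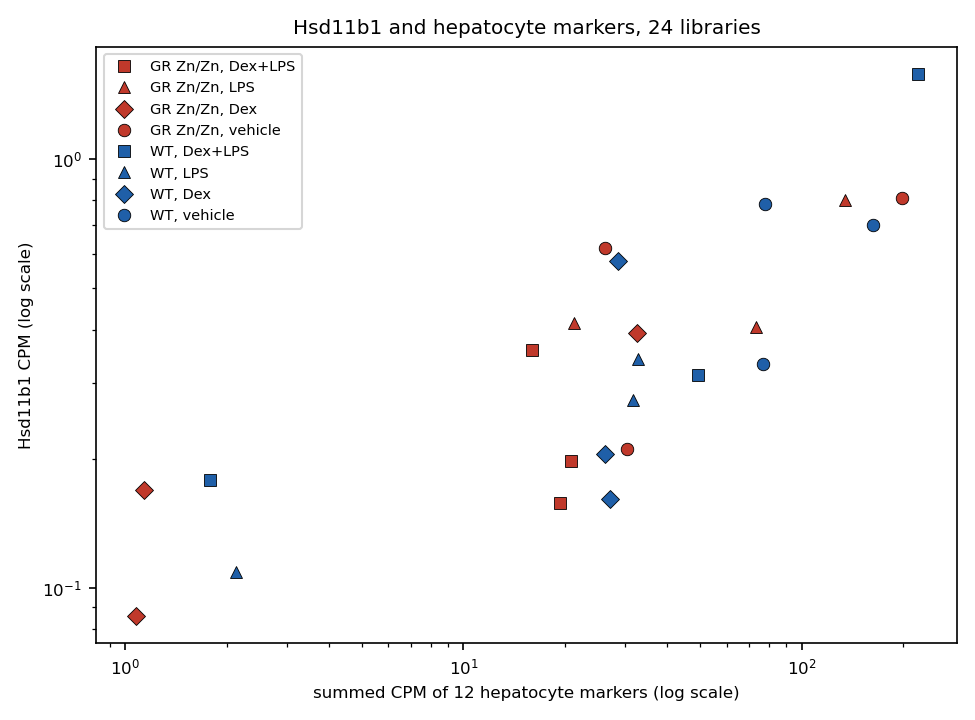
Hsd11b1 in CPM (vertical axis, log scale) against the summed CPM of 12 hepatocyte markers (horizontal axis, log scale) in 24 libraries; GR mutant red, wild type blue, with a symbol per treatment. Libraries with high marker sums have more Hsd11b1, and the highest of both, 1.58 and 221 CPM, is wild-type Dex with LPS replicate 3.

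Genes around the complex were read from lists of related genes, each also counted without the 5 libraries. Among 9 tested genes of glucocorticoid availability, 1 was higher and 2 were lower with Dex in wild type (median -0.13, against 7.9e-05 over all genes). Of all tested genes 7.92% were higher and 5.24% lower. H6pd, which makes the NADPH that HSD11B1 needs, had 168, 165 and 153 CPM in wild-type Dex libraries, against 85.7, 87.5 and 91.0 CPM in wild-type vehicle libraries (0.88 ± 0.06, adjusted p = 2.11e-10). Its genotype difference was -0.84 without LPS and -0.75 under LPS, both called. Hsd11b2, which inactivates glucocorticoid, fell by 1.31 ± 0.33 on the log2 scale (adjusted p = 0.00848), at 0.398 ± 0.126 CPM in wild-type Dex cells and 1.00 ± 0.212 CPM in wild-type vehicle cells. The counts were again 1 and 2 without the 5 libraries, of 8 tested, where 27.5% of all genes were called. Star, a cholesterol carrier for steroid synthesis, fell by 0.97 ± 0.31 (adjusted p = 0.0414) and was below 1 CPM in all 6 libraries. LPS raised the efflux pump genes Abcb1a and Abcb1b: Abcb1a averaged 6.08 ± 0.559 CPM in GR mutant LPS cells and 1.78 ± 0.193 CPM in mutant vehicle cells, and Abcb1b 57.8 ± 1.67 and 21.5 ± 0.832 CPM (adjusted p = 6.02e-09 and 1.19e-12). In wild type Abcb1a averaged 2.71 ± 0.359 CPM in LPS cells and 0.874 ± 0.194 CPM in vehicle cells, and Abcb1b 37.5 ± 1.26 and 17.6 ± 0.924 CPM (adjusted p = 9.21e-07 and 3.89e-10). With LPS 3 of the 9 tested availability genes were higher and 1 lower in the mutant, and 3 higher and 2 lower in wild type. Of all tested genes 19.0% were higher and 17.7% lower in the mutant, and 14.0% higher and 12.4% lower in wild type. The list counts were the same without the 5 libraries, of 8 tested, where 41.0% of all genes were called in the mutant and 42.4% in wild type.

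Among 12 heat shock response genes, 4 were higher and none lower with Dex in wild type without LPS, and 5 were higher and none lower under LPS (medians 0.05 and 0.12). In either direction 13.2% of all tested genes were called without LPS and 21.0% under LPS. Without the 5 libraries 27.5% were called without LPS. List counts with Dex here and below stand beside these shares. The small heat shock protein gene Hspb1 had 179, 186 and 171 CPM in wild-type Dex libraries, against 78.5, 80.6 and 81.5 CPM in wild-type vehicle libraries (1.15 ± 0.13, adjusted p = 1.06e-06). Cryab, another small chaperone, had 188, 184 and 193 CPM in wild-type Dex libraries, against 85.7, 85.7 and 88.6 CPM in wild-type vehicle libraries (1.12 ± 0.07, adjusted p = 8.32e-11). Dnajb4, an HSP40 cochaperone, rose by 0.47 ± 0.06 (adjusted p = 3.53e-06). In the GR mutant Hspb1 averaged 60.9 ± 3.55 CPM with Dex and 53.3 ± 6.60 CPM with vehicle, and Cryab 63.6 ± 2.71 CPM with Dex and 64.0 ± 2.35 CPM with vehicle. All 3 genes were also lower in mutant than in wild-type vehicle cells, at -0.60 for Hspb1, -0.44 for Cryab and -0.24 for Dnajb4, each called. Without the 5 libraries the counts with Dex alone in wild type were 5 higher and 3 lower. No such count is given for Dex under LPS here and below, since only replicate 2 of wild-type Dex with LPS is left.

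Among 29 other HSP90 and HSP70 cochaperones, 2 were higher and none lower with Dex in wild type (median 0.04). They were Ppp5c, a phosphatase that docks on HSP90 (0.25 ± 0.06, adjusted p = 0.00800), and Hspa8, the constitutive HSP70 (0.25 ± 0.08, adjusted p = 0.0293). Without the 5 libraries the count was 5 higher and 5 lower. With LPS 9 were higher and 1 lower in the mutant, and 4 were higher and none lower in wild type; without the 5 libraries these were 12 and 1 in the mutant and 11 and 1 in wild type. Over all genes 36.7% were called with LPS in the mutant and 26.4% in wild type, and without the 5 libraries 41.0% and 42.4%. Higher calls in wild type, 4 of 29, were thus near the 14.0% of all genes. Those with the largest changes in the mutant were the stress-inducible HSP70 genes Hspa1b (0.65 ± 0.16, adjusted p = 0.00252) and Hspa1a (0.50 ± 0.19, adjusted p = 0.0458), near-identical copies whose reads cannot be shared out surely, and Cdc37, the HSP90 adaptor for kinases (0.51 ± 0.12, adjusted p = 0.00192). In wild type they were Dnaja2 (0.36 ± 0.04, adjusted p = 3.63e-07), Dnajb6 (0.35 ± 0.11, adjusted p = 0.0230) and Hspa4 (0.18 ± 0.04, adjusted p = 0.00122). In the mutant, Hspa1b, Hspa1a and Cdc37 each had their lowest vehicle value in replicate 1 and their highest LPS value in replicate 2. Both libraries stood apart. Hspa1b had 11.2 CPM in mutant vehicle replicate 1, against 17.1 and 16.7 CPM in replicates 2 and 3. Cdc37 had 160 CPM there, against 204 and 203 CPM. The part of these libraries in the changes was not tested.

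Of 14 chaperones of the endoplasmic reticulum and mitochondria, none was called with Dex in wild type without LPS, and 8 were higher without the 5 libraries, where 27.5% of all genes were called. Under LPS 7 were higher and 1 lower, led by Sdf2l1 (0.80 ± 0.13, adjusted p = 5.28e-05), Pdia6 (0.25 ± 0.05, adjusted p = 0.000795) and Hspa5 (0.21 ± 0.05, adjusted p = 0.00471), all of the reticulum. Sdf2l1 and Pdia6 had their highest wild-type Dex with LPS value in replicate 1, a library at -0.58 with exon length. Sdf2l1 had 28.8 CPM there, against 24.2 and 20.6 CPM in replicates 2 and 3, and Pdia6 812 CPM, against 706 and 696 CPM. Hspa5 was highest in replicate 3, which also stood apart. The part of these libraries was not tested. Of 22 other immunophilins, 1 was higher with Dex in wild type, Fkbp15 (0.15 ± 0.04, adjusted p = 0.0147), and 2 were higher and 1 lower under LPS. The immunophilin counts with Dex alone were 7 higher and 1 lower without the 5 libraries. Of 27 GR coregulator genes, 1 was higher and 2 were lower: Tbl1xr1, a corepressor subunit, rose by 0.46 ± 0.06 (adjusted p = 1.43e-05), and the deacetylase gene Hdac6 (-0.24 ± 0.07, adjusted p = 0.0214) and the demethylase gene Kdm1a (-0.23 ± 0.05, adjusted p = 0.00337) fell. The coregulator counts were 2 higher and 7 lower without the 5 libraries. Of 16 nuclear transport genes, none was called with Dex alone and 5 were lower under LPS, led by the importin genes Kpna4 (-0.35 ± 0.08, adjusted p = 0.00357), Kpna1 (-0.34 ± 0.08, adjusted p = 0.00212) and Kpna6 (-0.29 ± 0.07, adjusted p = 0.00244). Kpna4, Kpna1 and Kpna6 each had their lowest wild-type Dex with LPS value in replicate 1, a library at -0.58 with exon length. Kpna4 had 143 CPM there, against 170 and 177 CPM in replicates 2 and 3. The part of length was not tested. The transport counts with Dex alone were 3 higher and 5 lower without the 5 libraries. In the GR mutant no gene of these lists was called with Dex, with or without LPS, with all libraries or without the 5.

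The genes most like Fkbp5 over the 24 libraries, by Pearson's r of log2 CPM among 12784 genes, were Zbtb16 (r = 0.983), Tent5b (0.981), Tmem38b (0.980), Rras2 (0.976) and Per1 (0.972). Those most like Nr3c1 were Rasa1 (0.952), Spred1 (0.950), Ccn4 (0.942), Grem1 (0.938) and Sntb2 (0.932). For Hsp90aa1 they were Eif3j1 (0.946), Vcp (0.916), Ywhaz (0.914), Ube2n (0.911) and Pdcd10 (0.892). Among those most like Hsd11b1 were Mat1a (0.871), Ces1c (0.853), Fabp1 (0.811) and Hpx (0.809), genes known for their expression in liver. The points are libraries of the same 8 groups, so these are descriptions.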

How the data were processed

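The authors counted reads per gene with STAR (versions 2.4.2 and 2.4.2a and build mm10 stand in the submitters' processing notes), and the deposited count tables hold an unstranded and 2 stranded counts for each gene. The libraries were made with a stranded kit, per the labels' protocols, and the reverse-strand count was used, since the other strand held 2.70 to 2.91% of reads. Reads outside any gene (3.10 to 4.72%), reads with several map positions (3.74 to 5.79%) and unmapped reads (2.92 to 5.58%) were kept out of library sizes. The authors' deposited tables give a log2 fold change and an adjusted p-value for 12588 genes. Their other 96 columns, of values per sample, were left unused.

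Groups were compared by edgeR (4.0.16, R 4.3.3) after TMM scaling and the default filter, which kept 15221 genes. All 24 libraries entered 1 robust quasi-likelihood fit with 1 coefficient per group. Every adjusted p is by Benjamini-Hochberg over all genes tested, with a threshold of 0.05, from this fit unless another source is named. SE is the log2 fold change over the root of the F statistic. The script was tested on simulated data. The alternatives were RLE scaling, no filter, DESeq2 1.42.0, unstranded counts, the compared groups only, the replicate block, leaving out each library, the 3 libraries numbered in a later series, or those 3 and 2 more that stood apart. Lists of other genes were also counted without those 5, an alternative chosen after seeing the data. Gene models are from GENCODE vM21 on GRCm38, promoter windows from RefSeq.

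The 9 genes and the lists were chosen with earlier results of these data known. All 9 are named; from each other list, the called genes with the 3 largest changes in a comparison were eligible; and the 5 genes most like each of 4 members, among genes with a mean of at least 1 CPM. A gene that this rule names is not reported here. A count of 0 allows up to 3 reads; such limits cover counting error only.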

Additional observations from a re-analysis of the deposited data

Results flagged for a closer look

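The Dex effect differed between the genotypes, by a test of the difference itself, for Fkbp5 and for genes of the other lists. For Fkbp5 the difference of mutant from wild type was -2.92 on the log2 scale without LPS and -2.69 under LPS. Without LPS it was -1.13 for Cryab, -0.96 for Hspb1, -0.84 for H6pd, -0.57 for Tbl1xr1, -0.54 for Dnajb4, -0.43 for Hspa8 and 1.93 for Hsd11b2. Under LPS it was -1.19 for Hspb1, -1.16 for Cryab, -0.75 for H6pd, -0.73 for Sdf2l1, -0.53 for Dnajb4, -0.46 for Tbl1xr1, -0.32 for Ppp5c, 0.31 for Kdm1a, 0.36 for Dnaja2 and 0.93 for Abcb1a. Hsd11b2 had 0.481, 0.759 and 0.429 CPM in mutant Dex libraries, against 0.229, 0.523 and 0.422 CPM in mutant vehicle libraries. It had 0.442, 0.496 and 0.256 CPM in wild-type Dex libraries, against 0.760, 1.14 and 1.12 CPM in wild-type vehicle libraries. These values are near the floor of detection.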

How the results depend on the processing

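Each of the 99 gene and comparison pairs was recomputed under the alternatives, 1595 values in all. In 1418 the direction and the side of the threshold were as reported, 44 gained a call, 10 lost one and 123 changed sign, 120 of them with no call in the alternative. Fkbp5 and Nr3c1 kept their calls with Dex in wild type in all 14 alternatives, at 2.87 to 2.93 and -0.65 to -0.59 without LPS, and at 2.63 to 2.73 and -0.67 to -0.42 under LPS. Under LPS the fit without the 5 libraries kept only replicate 2 of wild-type Dex with LPS. Pairing by replicate number was not seen in the pooled median. The correlation of deviations had a median of -0.0034 over 84 same-number pairs (-0.53 to 0.37). Over 168 other-number pairs it was -0.0076 (-0.65 to 0.76). A pooled median cannot show pairing within part of the groups. With the replicate block the counts of genes called from 9 were those reported: 2, 0, 2, 0, 4, 3, 0, 1, 1, 0 and 0, and the Fkbp4 value for LPS in the mutant was -0.00013.

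The count called from 9 was 4 in place of 2 for Dex in wild type (compared groups only, without 3 or without 5 libraries). For Dex under LPS in wild type it was 5 without 3 libraries, and 2 to 4 when 1 library was left out. For LPS it was 7 in wild type without 5, and in the mutant 5 without 3, 6 without 5 and 1 to 5 with 1 left out. Between the genotypes in vehicle it was 1 without 5. For the genotype difference of the Dex effect it was 3 with compared groups only, 2 with DESeq2 and 3 without 5, and under LPS 1 to 2 with 1 left out. For the genotype difference of the LPS effect it was 1 without 5. Counts without 5 that use wild-type Dex with LPS are not given, since only replicate 2 of it is left. The cause of these changes was not tested.

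Counts over all genes moved by over 1.5 times in these cases. With the compared groups only, 4659 genes were called for Dex in wild type in place of 2003, 1544 under LPS in place of 3198, 6847 for LPS in wild type in place of 4020, 1659 for the genotype difference of the Dex effect in place of 1064, 1042 for that under LPS in place of 1581, and 146 for that of the LPS effect in place of 82. Without the 5 libraries they were 4330 for Dex in wild type and 6676 for LPS in wild type. For the genotype difference of the Dex effect the count was 2191, and for that of the LPS effect 405. Between the genotypes in vehicle it was 4620 in place of 2861. Counts without 5 that use wild-type Dex with LPS are not given. Without 3 libraries the counts were 5052 for Dex under LPS in wild type and 387 for the LPS difference in place of 238. DESeq2 gave 142 for the genotype difference of the LPS effect. For Dex in the mutant 0 were called, against 3 with DESeq2, 1 without 3 and 5 without 5 libraries. For Dex under LPS in the mutant 1 was called, against 29 with DESeq2, 12 with the replicate block, 6 with no filter, 160 without 5 libraries, and 0 without 3 or with the compared groups only. With 1 library left out that count was 27 without mutant Dex with LPS replicate 2 and 0 in the rest, and the genotype difference of the LPS effect had 34 (without mutant vehicle replicate 1) to 79 genes in place of 82.

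Signs changed outside the left-out fits as follows. For Dex under LPS in wild type the values were -0.0042, -0.0034 and -0.0029 for Fkbp4, -0.12 and -0.11 for Hsp90aa1, -0.026, -0.0023, -0.0012 and -0.00094 for Stip1 and -0.027 for Hsd11b1. For Dex under LPS in the mutant the values were 0.0080 for Nr3c1, 0.00075, 0.0060, 0.0072, 0.0088, 0.011 and 0.033 for Fkbp5, -0.014 for Fkbp4, -0.018 for Hsp90ab1, 0.0027 for Stip1 and 0.010 for Ppid. For LPS in the mutant the values were -0.052, -0.045, -0.012, -0.0088, -0.0087, -0.0032 and -0.00013 for Fkbp4 and 0.010 and 0.018 for Hsd11b1. For the genotypes in vehicle the values were -0.086 and -0.082 for Hsp90aa1. For the genotype difference of the Dex effect the values were 0.0016 for Hsp90ab1 and 0.033 and 0.040 for Hsd11b1. For that difference under LPS the values were -0.072 and -0.037 for Fkbp4, 0.066 and 0.11 for Hsp90aa1 and 0.0020 and 0.0038 for Stip1. For the genotype difference of the LPS effect the values were 0.032 and 0.041 for Hsp90aa1 and -0.0080, -0.0075 and -0.0070 for Stip1. For the LPS difference of the Dex effect in wild type the values were -0.057 for Nr3c1 and -0.051 and -0.024 for Ppid. Called among these were Hsp90aa1 with Dex under LPS in wild type without 3 libraries, and between the genotypes without 5. The other call, Hsp90aa1 with Dex under LPS in wild type without 5 libraries, rests on replicate 2 alone of wild-type Dex with LPS.

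Leaving out 1 library changed the sign in some fits, over these ranges. The range for Dex in the mutant was -0.057 to 0.015 for Fkbp5. The range for Dex under LPS in wild type was -0.10 to 0.12 for Fkbp4, -0.11 to 0.071 for Hsp90aa1, -0.029 to 0.034 for Stip1 and -0.022 to 2.05 for Hsd11b1. The range for Dex under LPS in the mutant was -0.22 to 0.085 for Nr3c1, -0.013 to 0.027 for Fkbp5, -0.0052 to 0.12 for Fkbp4, -0.022 to 0.037 for Hsp90ab1, -0.041 to 0.032 for Stip1 and -0.075 to 0.00023 for Ppid. The range for LPS in the mutant was -0.069 to 0.021 for Fkbp4 and -0.52 to 0.49 for Hsd11b1. The range for the genotypes in vehicle was -0.0055 to 0.085 for Fkbp4, -0.083 to 0.13 for Hsp90aa1 and -0.58 to 0.28 for Hsd11b1. The range for the genotype difference of the Dex effect was -0.044 to 0.0016 for Hsp90ab1, -0.029 to 0.10 for Ppid and -1.22 to 0.32 for Hsd11b1. The range for that difference under LPS was -0.056 to 0.16 for Fkbp4, -0.16 to 0.014 for Hsp90aa1 and -0.047 to 0.038 for Stip1. The range for the genotype difference of the LPS effect was -0.035 to 0.067 for Fkbp5, -0.13 to 0.083 for Hsp90aa1, -0.023 to 0.014 for Stip1 and -0.045 to 0.088 for Ppid. The range for the LPS difference of the Dex effect in wild type was -0.058 to 0.20 for Nr3c1, -0.063 to 0.16 for Fkbp4, -0.16 to 0.022 for Hsp90aa1 and -0.025 to 0.091 for Ppid.

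Among the 9 genes depth limits Hsd11b1 most, with 2 to 89 reads per library.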
